A study of Sus scrofa with 45 samples.

Results

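ROMO1 (reactive oxygen species modulator 1) is the annotated gene of 4 of the 43603 porcine probes on the array. The 4 were found by name: every probe whose gene name, RefSeq record or description names ROMO1, which the array files list under its older symbol C20orf52. The gene itself was selected from measured values, its place among the changes in whole blood after 27 weeks of the sugar-containing diet. All ROMO1 values of whole blood at 27 weeks are therefore descriptions and carry no test of diet. The tests below use whole blood at 10 and 19 weeks and white blood cells at 27 weeks. Only a check for outlying arrays within groups also looked at the whole blood control arrays at 27 weeks. Probes to 1 gene share a target and are not replicates, so groups are compared over arrays, probe by probe.

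ROMO1 is a small protein of the inner mitochondrial membrane. It is known as a modulator of reactive oxygen species, as a partner of the TIM23 import machinery, and for its part in keeping the shape of cristae together with the fusion protein OPA1. Blood holds mature red cells without mitochondria beside reticulocytes, platelets and leukocytes that have them.

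The study gave male Clawn miniature pigs a control diet, a diet high in fat and cholesterol (HFCD), or a diet high in fat, cholesterol and sucrose (HFCSD). Whole blood was taken after 10, 19 and 27 weeks of feeding and white blood cells after 27 weeks. RNA came from the PAXgene kit for whole blood and from the LeukoLOCK kit for white blood cells, and was labelled with Cy3 for Agilent porcine arrays. There are 45 arrays in 12 groups, 4 in each group except 3 for HFCSD in whole blood at 19 weeks, 3 for HFCD in whole blood at 27 weeks and 3 for HFCSD there.

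Both diets of a feeding period are set against the same control arrays. White blood cells and whole blood differ in kit and in scan day, so that sample type, kit and scan day cannot be told apart. The feeding periods of whole blood share no scan day and no slide. In an order over all groups, feeding period and scan day therefore cannot be told apart either. The labels do not say whether arrays with the same replicate number are of the same pig.

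All 4 probes are single spots that were well above background, as the image software marks it, on 45 of 45 arrays, so the filter on dim probes removed no ROMO1 probe. Of these spots 0 were marked as outliers and 0 as saturated. Values are log2 intensities after quantile normalization over the 45 arrays, so they are relative to the other probes of an array. In bulk blood, fewer cells of a type and less RNA per cell cannot be told apart. The share of spots well above background ran from 35.4% to 53.3% over the arrays.

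The array files give a start position for each ROMO1 probe but not the record it is counted on. It is 78 for A_72_P156339, 287 for A_72_P100156, 322 for A_72_P230067 and 327 for A_72_P088151. A_72_P156339, A_72_P230067 and A_72_P088151 list the RefSeq ROMO1 mRNA among their accessions, and A_72_P100156 does not: it lists only an EST from a skin library, which A_72_P156339 and A_72_P230067 also list. A_72_P230067 and A_72_P088151 overlap in 55 bases and differ there by 1 substitution. With A_72_P088151 first and positions counted from 1 at its 5′ end, this is T27A, and the same base stands at position 32 of A_72_P230067. The windows of 25 bases around that base are printed because these probes sample almost the same site, with the substituted base in capitals:
A_72_P088151: cccagcccatgtTctataataaaac
A_72_P230067: cccagcccatgtActataataaaac
The whole 60 bases of the other probes are printed because their values differ in the groups described next. Capitals mark the longest run each shares with another ROMO1 probe, and where runs tie in length only 1 is marked:
A_72_P156339: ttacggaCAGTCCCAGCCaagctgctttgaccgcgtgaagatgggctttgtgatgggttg
A_72_P100156: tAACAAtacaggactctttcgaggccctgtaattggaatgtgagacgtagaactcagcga
A_72_P156339 shares a run of 11 bases with A_72_P230067 and with A_72_P088151. A_72_P100156 shares no run longer than 5 bases with any other ROMO1 probe on the same strand, and none longer than 6 on the opposite strand. The sequence of the ROMO1 transcript was not among the files, so the probes were not placed on it. From general knowledge, and from no file at hand, the first part of A_72_P100156 resembles mammalian 18S ribosomal RNA. Whether this probe reads ROMO1 RNA or another RNA was not tested, and its values are those of the probe.

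A_72_P156339, the probe with the lowest start position, had in whole blood at 10 weeks control values of 10.99, 10.80, 10.29 and 10.65. Its HFCD arrays read 10.02, 10.74, 10.30 and 9.97. Its HFCSD arrays read 11.15, 10.80, 10.22 and 10.06. All diets overlapped with control, and only HFCD replicate 2 lay above the control mean among the HFCD arrays. At 19 weeks the control arrays read 11.19, 10.61, 9.64 and 9.89, and the highest, replicate 1, was the only control scanned on the same day as the diet arrays. HFCD arrays read 10.79, 10.73, 11.57 and 11.67, all above the control mean of 10.33. HFCSD arrays read 11.18, 10.48 and 11.82, also all above that mean and overlapping with control replicate 1 and replicate 2. White blood cell control arrays read 9.59, 9.76, 10.31 and 9.90 for this probe. HFCD arrays of white blood cells read 9.97, 10.21, 10.12 and 9.98, and HFCSD arrays 10.38, 9.97, 10.38 and 10.32. Of the HFCSD arrays 3 of 4 lay above every control array there, and of the HFCD arrays 0.

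For A_72_P230067 the whole blood control arrays at 10 weeks read 12.12, 12.03, 11.55 and 11.90. HFCD arrays at 10 weeks read 11.28, 12.08, 11.54 and 11.05, and HFCSD arrays 12.44, 12.10, 11.49 and 11.25. Of the HFCD arrays 3 lay below every control, and replicate 2 lay within them. At 19 weeks this probe read 12.41, 12.50, 11.62 and 12.01 in control. It read 12.16, 12.72, 12.84 and 13.14 under HFCD and 12.61, 12.01 and 13.24 under HFCSD. Here 3 of 4 HFCD arrays and 2 of 3 HFCSD arrays lay above every control. White blood cell control arrays lay between 10.31 and 10.89, the HFCD arrays 10.62, 10.88, 11.09 and 10.59 and the HFCSD arrays 11.05, 10.82, 10.92 and 11.12. Of the HFCSD arrays there 3 lay above every control, and of the HFCD arrays 1.

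A_72_P088151 has a site 5 bases on from A_72_P230067 and moved with it array by array, as the correlations below show. Its group means in whole blood at 10 weeks were 11.46 ± 0.27 (SD, n = 4) in control, 10.90 ± 0.49 (SD, n = 4) under HFCD and 11.34 ± 0.54 (SD, n = 4) under HFCSD. At 19 weeks they were 11.68 ± 0.51 (SD, n = 4), 12.25 ± 0.38 (SD, n = 4) and 12.18 ± 0.71 (SD, n = 3) in the same order of diets. For white blood cells they were 10.14 ± 0.29 (SD, n = 4), 10.39 ± 0.15 (SD, n = 4) and 10.42 ± 0.10 (SD, n = 4). The diet arrays overlapped with control in all of these.

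A_72_P100156 varied far more. In whole blood at 10 weeks its control arrays read 14.10, 13.38, 12.22 and 12.42. HFCD arrays then read 11.36, 13.60, 12.23 and 9.86, and HFCSD arrays 13.73, 13.96, 12.08 and 11.51. HFCD replicate 4 was lowest and the groups overlapped. At 19 weeks its control arrays read 12.94, 15.50, 14.52 and 13.32. The HFCD arrays read 8.30, 15.51, 15.58 and 12.98. The HFCSD arrays read 14.89, 13.52 and 10.31. HFCD replicate 1 at 19 weeks was the lowest of the 45 arrays for this probe, whose range over them is 7.31 log2 units or 159-fold. White blood cell arrays read 12.57, 12.97, 14.33 and 13.24 in control, 13.73, 13.67, 13.32 and 13.59 under HFCD and 14.51, 13.15, 13.01 and 14.25 under HFCSD, and they overlapped. The ranges over the 45 arrays of the other probes were 2.37 log2 units for A_72_P156339, 2.93 for A_72_P230067 and 3.05 for A_72_P088151.

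**Figure D1:**
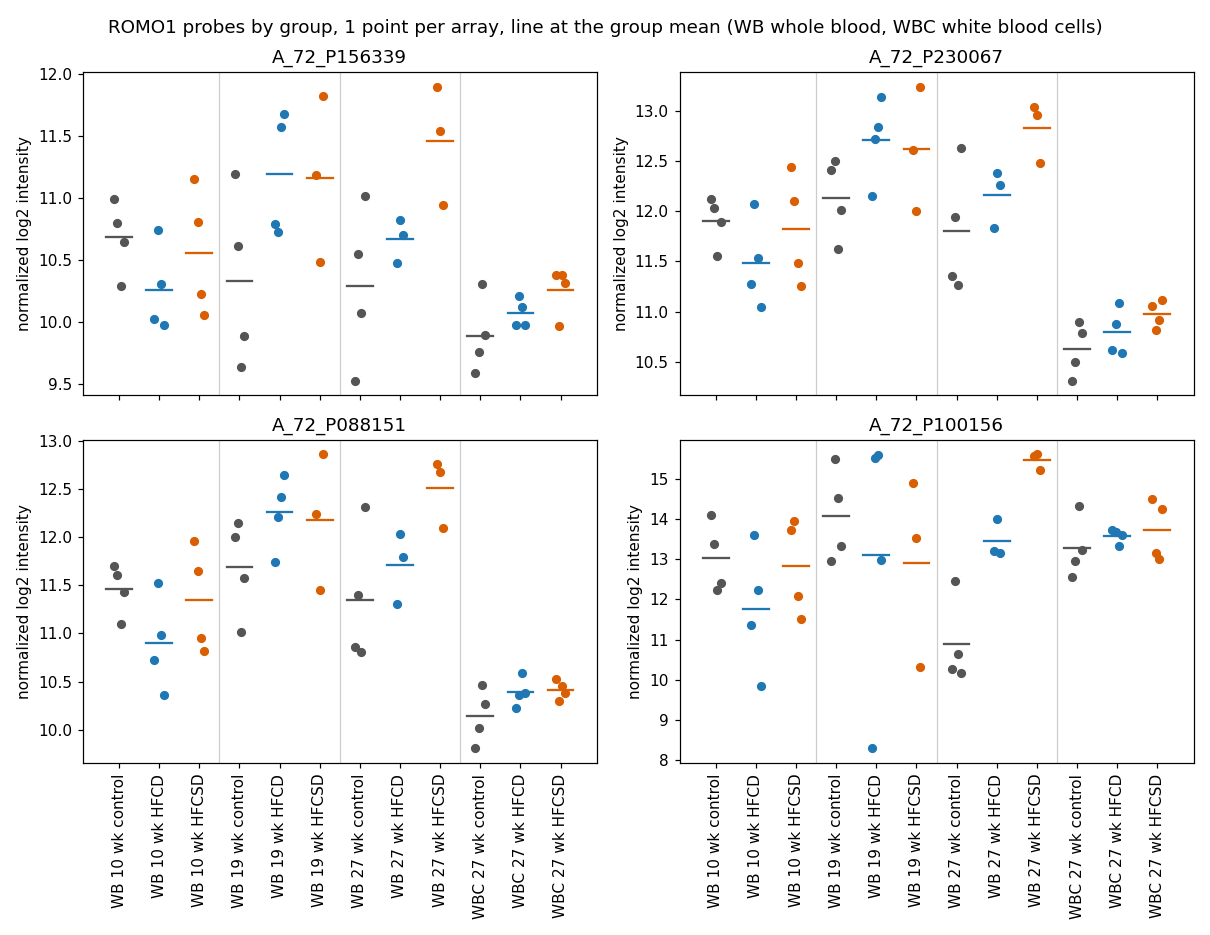
Normalized log2 intensity of each ROMO1 probe in the 12 groups, 1 point per array with a line at the group mean; each panel has its own vertical scale. A_72_P100156 spreads widest, from 8.30 to 15.61, and in whole blood at 27 weeks its diet arrays lie above all control arrays.

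Whole blood at 27 weeks is the contrast the gene was chosen from, and its values follow as a description. A_72_P100156 read 10.28, 12.47, 10.64 and 10.18 in control. It read 13.21, 13.99 and 13.15 under HFCD and 15.55, 15.61 and 15.22 under HFCSD. The lowest diet array was higher than the highest control array. The HFCD mean was 2.56 and the HFCSD mean 4.57 log2 units over the control mean, or 5.90-fold and 23.8-fold. By size of change A_72_P100156 ranked 1 of the 17135 probes tested for HFCSD and 5 of 18188 for HFCD. A_72_P156339 read 9.53, 10.55, 10.07 and 11.01 in control, 10.47, 10.82 and 10.70 under HFCD and 11.90, 11.53 and 10.94 under HFCSD. Control replicate 4 lay above every HFCD array and above HFCSD replicate 3, and the HFCD and HFCSD means were 0.38 and 1.17 log2 units over control. A_72_P230067 read 11.35, 11.94, 11.26 and 12.63 in control, 11.83, 12.38 and 12.26 under HFCD and 13.04, 12.96 and 12.48 under HFCSD. Its means were 0.36 and 1.03 log2 units over control, again with control replicate 4 among the diet arrays. A_72_P088151 read 10.86, 11.40, 10.81 and 12.32 in control, 11.31, 12.03 and 11.79 under HFCD and 12.75, 12.67 and 12.10 under HFCSD. Its means were 0.37 and 1.16 log2 units over control, with the same control array high. For HFCSD these probes ranked 1734 (A_72_P156339), 2003 (A_72_P230067) and 1741 (A_72_P088151) of 17135. The median change of all probes tested for HFCSD was -0.21 log2 units, the shift against which these changes stand. Probes with diet arrays all on 1 side of the controls made up 6.21% of those tested for HFCD and 27.6% for HFCSD, beside 1 of the 4 ROMO1 probes in each. The gene was selected on this contrast, so these counts carry no support.

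Means below are given with their SD over the 4 or 3 arrays of a group. Ordered by mean over the 12 groups, A_72_P156339, A_72_P230067 and A_72_P088151 gave the same top 3: HFCSD whole blood at 27 weeks, HFCD at 19 weeks and HFCSD at 19 weeks. Their means there were 11.46 ± 0.48, 11.19 ± 0.50 and 11.16 ± 0.67 for A_72_P156339. The lowest means of A_72_P230067 and A_72_P088151 were the 3 groups of white blood cells, with 10.98 ± 0.13, 10.80 ± 0.23 and 10.62 ± 0.27 for A_72_P230067. Between neighbours in the order, the gap passed the larger of their SDs at 0 of 11 steps for A_72_P156339 and for A_72_P088151. It did so at 1 of 11 for A_72_P230067, between HFCD whole blood at 10 weeks and HFCSD white blood cells, 0.51 log2 units. Arrays of neighbours overlapped at 11 of 11 steps for each of these probes.

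From the highest down, the middle of the order for A_72_P156339 was whole blood control at 10 weeks (10.68 ± 0.30), HFCD at 27 weeks (10.67 ± 0.18), HFCSD at 10 weeks (10.56 ± 0.51), control at 19 weeks (10.33 ± 0.71) and control at 27 weeks (10.29 ± 0.64). White blood cells under HFCSD (10.26 ± 0.20), whole blood HFCD at 10 weeks (10.26 ± 0.35), white blood cells under HFCD (10.07 ± 0.11) and in control (9.89 ± 0.31) closed it. No step in this order passed the spread of its neighbours.

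A_72_P230067 began with HFCSD at 27 weeks (12.83 ± 0.30), HFCD at 19 weeks (12.71 ± 0.41) and HFCSD at 19 weeks (12.62 ± 0.62). Then came HFCD at 27 weeks (12.16 ± 0.29), control at 19 weeks (12.13 ± 0.40) and control at 10 weeks (11.90 ± 0.25). HFCSD at 10 weeks (11.82 ± 0.55), control at 27 weeks (11.80 ± 0.63) and HFCD at 10 weeks (11.49 ± 0.44) followed, above the white blood cells. A_72_P088151 had this order as well, except that control at 27 weeks (11.35 ± 0.70) stood 0.002 log2 units over HFCSD at 10 weeks. Its top 4 were 12.51 ± 0.36, 12.25 ± 0.38, 12.18 ± 0.71 and 11.71 ± 0.37.

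The order of A_72_P100156 was another. HFCSD whole blood at 27 weeks was highest at 15.46 ± 0.21, and whole blood control at 27 weeks lowest at 10.89 ± 1.07. Control at 19 weeks (14.07 ± 1.17) was next to the top, 1.39 log2 units down, the single step of 11 that passed the larger SD. The group above this step belongs to the contrast the gene was chosen from, so the step is a description and carries no support. Arrays of neighbours overlapped at 11 of 11 steps. At this step the lowest HFCSD array read 15.22 and the highest control array 15.50. White blood cells came next, with HFCSD at 13.73 ± 0.76 and HFCD at 13.58 ± 0.18, then whole blood HFCD at 27 weeks (13.45 ± 0.47) and white blood cell control (13.27 ± 0.75). HFCD at 19 weeks (13.09 ± 3.42), control at 10 weeks (13.03 ± 0.87) and HFCSD at 19 weeks (12.91 ± 2.35) followed. HFCSD at 10 weeks (12.82 ± 1.21) and HFCD at 10 weeks (11.76 ± 1.57) stood above the lowest group.

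The difference between white blood cells and whole blood at 27 weeks (first minus second), given without a test, had the same sign in the 3 diets for A_72_P156339, A_72_P230067 and A_72_P088151. The differences in control were -0.40, -1.17 and -1.20 log2 units, under HFCD -0.59, -1.36 and -1.32, and under HFCSD -1.20, -1.85 and -2.09. For A_72_P100156 they were 2.38 in control, 0.13 under HFCD and -1.73 under HFCSD, a change of sign between diets.

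The diet comparisons ask whether blood RNA differs from that of control pigs after each feeding period. In the 6 comparisons that can be tested, no ROMO1 probe passed a limma adjusted p of 0.05, and 0 of the 24 tests had an unadjusted p under 0.05. Adjustment ran over all probes tested in a comparison, and adjusted p ran from 0.415 to 0.9999. At 10 weeks HFCD minus control was -0.42 ± 0.27 (SE) for A_72_P156339, -0.41 ± 0.29 for A_72_P230067, -0.56 ± 0.30 for A_72_P088151 and -1.27 ± 0.77 for A_72_P100156, with limma adjusted p of 0.586, 0.612, 0.533 and 0.572. All 4 were lower in 3 of 4 HFCD arrays than the control mean. HFCSD minus control at 10 weeks was -0.12 ± 0.27, -0.08 ± 0.29, -0.11 ± 0.30 and -0.21 ± 0.77 in the same order of probes, each with a limma adjusted p of 0.9999. Of the HFCSD arrays 2 of 4 lay above the control mean for each probe.

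At 19 weeks HFCD minus control was 0.86 ± 0.41 for A_72_P156339, 0.58 ± 0.32 for A_72_P230067, 0.57 ± 0.35 for A_72_P088151 and -0.98 ± 1.49 for A_72_P100156, with limma adjusted p of 0.415, 0.497, 0.546 and 0.837. HFCD arrays lay above the control mean in 4 of 4 cases for A_72_P156339, A_72_P230067 and A_72_P088151, and in 2 of 4 for A_72_P100156. HFCSD minus control was 0.83 ± 0.44, 0.48 ± 0.35, 0.50 ± 0.38 and -1.16 ± 1.61, with limma adjusted p of 0.468, 0.584, 0.604 and 0.777. For HFCSD 3 of 3 arrays lay above the control mean for A_72_P156339, 2 of 3 for A_72_P230067 and for A_72_P088151, and 1 of 3 for A_72_P100156. The mean of A_72_P100156 was below control where those of the other probes were above it, and without HFCD replicate 1 its HFCD change was 0.62, and without HFCSD replicate 3 its HFCSD change was 0.14. On leaving out 1 array the HFCD change ran from 0.63 to 1.14 for A_72_P156339, 0.40 to 0.76 for A_72_P230067 and 0.35 to 0.74 for A_72_P088151, and the HFCSD change from 0.50 to 1.17, 0.17 to 0.79 and 0.16 to 0.86. Scan day differs within the control group here: against control replicate 1 alone, which shares its day with the diet arrays, HFCD minus control was -0.002, 0.30, 0.26 and 0.15 log2 units in the same order of probes. For HFCSD these values were -0.03, 0.21, 0.18 and -0.04. The shared day holds 1 control array. All of these values are closer to 0 than those over all arrays, and those of A_72_P156339 for both diets and of A_72_P100156 for HFCD took the other sign.

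White blood cells gave HFCD minus control of 0.18 ± 0.18, 0.17 ± 0.18, 0.25 ± 0.17 and 0.30 ± 0.40 in the same order of probes, all with a limma adjusted p of 0.997. HFCD arrays lay above the control mean in 4 of 4 cases, except 2 of 4 for A_72_P230067. HFCSD minus control was 0.37 ± 0.18, 0.35 ± 0.18, 0.28 ± 0.17 and 0.45 ± 0.40, with limma adjusted p of 0.470, 0.489, 0.576 and 0.713. HFCSD arrays lay above the control mean in 4 of 4 cases, except 2 of 4 for A_72_P100156. All 4 probes differ from control by less than the spread of the control arrays under HFCD.

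The background of these tests is the share of all probes called. At 10 weeks 0.0281% of 17767 probes passed for HFCD and 0.0123% of 16198 for HFCSD. At 19 weeks 0.0181% of 16615 and 0.0175% of 17178 passed. For white blood cells 0.0276% of 18126 and 0.0366% of 19105 passed. In whole blood at 27 weeks 0.0165% of 18188 passed for HFCD and 10.6% of 17135 for HFCSD. The latter count, 1824 probes, ran from 95 to 2834 on leaving out 1 array, and was 0 with a covariate for the share of spots that are well above background. Diet arrays that did not overlap with control were found for 5.39% of probes at 10 weeks under HFCD and 0.975% under HFCSD, 7.47% and 18.3% at 19 weeks, and 2.89% and 6.2% in white blood cells. None of the 4 ROMO1 probes was among them in those 6 comparisons.

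Values can be compared within a slide where it holds diet and control arrays, which at 19 weeks is so for 1 of the 4 control arrays. Within the 3 slides of whole blood at 10 weeks, HFCD minus control ran from -0.97 to -0.28 for A_72_P156339 and from -2.73 to -0.47 for A_72_P100156, all negative. HFCSD minus control on these slides ran from -0.58 to -0.01 for A_72_P156339, -1.30 to -0.25 for A_72_P100156, -0.55 to 0.15 for A_72_P230067 and -0.65 to 0.10 for A_72_P088151. In whole blood at 27 weeks, where 2 slides hold control and HFCSD arrays, HFCSD minus control ran from 0.99 to 1.34 for A_72_P156339 and from 3.14 to 4.75 for A_72_P100156. HFCD minus control there ran over 2 slides from 0.04 to 0.55 and from 0.71 to 3.77 for these probes. At 19 weeks 1 slide held control and HFCD arrays, and gave -0.46 and 2.56 for these probes, and 0.30 and 0.21 for A_72_P230067 and A_72_P088151. In white blood cells HFCD minus control took both signs over 3 slides for each probe: -0.10 to 0.38 for A_72_P156339, -0.01 to 0.54 for A_72_P230067, -0.11 to 0.55 for A_72_P088151 and -0.66 to 0.70 for A_72_P100156. HFCSD minus control ran in the same order of probes from 0.04 to 0.62, 0.19 to 0.42, -0.01 to 0.44 and 0.05 to 0.25.

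To compare the probes with each other, the change in the log2 difference between 2 probes on the same array was tested. The 6 probe pairs in the 6 comparisons gave 36 two-sided exact permutation tests, of which 1 had an unadjusted p under 0.05 and 0 an adjusted p under 0.05. That 1 test is for A_72_P088151 against A_72_P230067 under HFCD at 10 weeks, a change of -0.14 log2 units with an exact permutation p of 0.0286, the smallest this design can give, and an adjusted p of 0.758. The change of A_72_P100156 minus that of A_72_P156339 was -0.85 log2 units under HFCD at 10 weeks (exact permutation p = 0.257), -1.84 under HFCD at 19 weeks (exact permutation p = 0.400) and -1.99 under HFCSD at 19 weeks (exact permutation p = 0.286), each with an adjusted p of 0.758. It came to 0.12 for HFCD and 0.08 for HFCSD in white blood cells. Arrays overlapped between diet and control in all of these. In whole blood at 27 weeks, as a description, the change of A_72_P100156 exceeded that of A_72_P156339 by 2.18 under HFCD and 3.40 under HFCSD, and that of A_72_P230067 by 2.20 and 3.54. The change of A_72_P156339 exceeded that of A_72_P230067 by 0.02 and 0.14, and both values took the other sign in at least 1 alternative.

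The deviations of the arrays from their group means were correlated between ROMO1 probes within each set of 3 diet groups. The 18 relations with a permutation p came from 12 arrays at 10 weeks, 11 at 19 weeks and 12 of white blood cells. Permutations were drawn within groups, and p was adjusted over the 18. At 10 weeks A_72_P088151 with A_72_P230067 gave Pearson r 0.995 and Spearman rho 0.98, each with a permutation p of 9e-05 and an adjusted permutation p of 0.00054. A_72_P156339 with A_72_P230067 gave r 0.99 and rho 0.97, and with A_72_P088151 r 0.98 and rho 0.94, at the same permutation p and adjusted p. A_72_P100156 went with the others at 10 weeks too, with r 0.94 with A_72_P088151, 0.92 with A_72_P230067 and 0.89 with A_72_P156339 (permutation p of 0.00063, 0.00075 and 0.00096, adjusted 0.00225, 0.00225 and 0.00247). Its rho values there were 0.96, 0.94 and 0.90 (permutation p of 0.0008, 0.00092 and 0.00145, adjusted 0.00276, 0.00276 and 0.00373). Without the 2 arrays farthest from the median of the first probe, r lay between 0.90 and 0.99 for all 6 pairs.

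At 19 weeks A_72_P100156 showed no such relation. It gave r 0.068 and rho -0.055 with A_72_P088151, r 0.11 and rho -0.027 with A_72_P230067, and r -0.075 and rho -0.26 with A_72_P156339, with permutation p of 0.848, 0.778 and 0.83 for r and 0.89, 0.949 and 0.435 for rho. The adjusted permutation p was 0.848 for each r, and 0.942, 0.949 and 0.489 for rho. The 3 other pairs gave r 0.99 for A_72_P088151 with A_72_P230067, 0.88 for A_72_P088151 with A_72_P156339 and 0.87 for A_72_P156339 with A_72_P230067 (permutation p of 0.00029, 0.00461 and 0.00533, adjusted 0.0013, 0.00799 and 0.00799). Their rho values were 0.97, 0.86 and 0.82 (permutation p of 0.00055, 0.0088 and 0.0109, adjusted 0.00247, 0.0198 and 0.0218). Without the 2 farthest arrays r was 0.99, 0.81 and 0.89 for these pairs, and between -0.16 and 0.23 for the pairs with A_72_P100156. Within the scan day that holds all 7 diet arrays, r was 0.99, 0.92 and 0.90 for these pairs, and 0.076, 0.12 and -0.045 for A_72_P100156 with A_72_P088151, A_72_P230067 and A_72_P156339.

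White blood cells, all scanned on 1 day, gave r 0.86 for A_72_P088151 with A_72_P230067, 0.84 for A_72_P088151 with A_72_P156339 and 0.79 for A_72_P156339 with A_72_P230067 (permutation p of 0.005, 0.00501 and 0.00451, each adjusted to 0.00799). Their rho values were 0.79, 0.72 and 0.69 (permutation p of 0.0246, 0.0226 and 0.0237, each adjusted to 0.0369). A_72_P100156 gave r 0.58, 0.57 and 0.71 with A_72_P088151, A_72_P230067 and A_72_P156339 (permutation p of 0.0868, 0.0545 and 0.0566, adjusted 0.104, 0.0728 and 0.0728), and rho 0.35, 0.40 and 0.60 (permutation p of 0.327, 0.187 and 0.0766, adjusted 0.392, 0.24 and 0.106). Without the 2 farthest arrays these r values were 0.11, 0.42 and 0.44, and those of the 3 other pairs 0.76, 0.60 and 0.64. As a description over the 10 whole blood arrays at 27 weeks, r was 0.99, 0.89 and 0.90 for the 3 other pairs in the same order, and between 0.075 and 0.27 for the pairs with A_72_P100156. Without the 2 farthest arrays these 3 other pairs gave 0.99, 0.89 and 0.84. A_72_P100156 then gave 0.53, -0.12 and 0.11 with A_72_P088151, A_72_P230067 and A_72_P156339. Whether the relations of A_72_P100156 differ between sets was not tested.

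**Figure D2:**
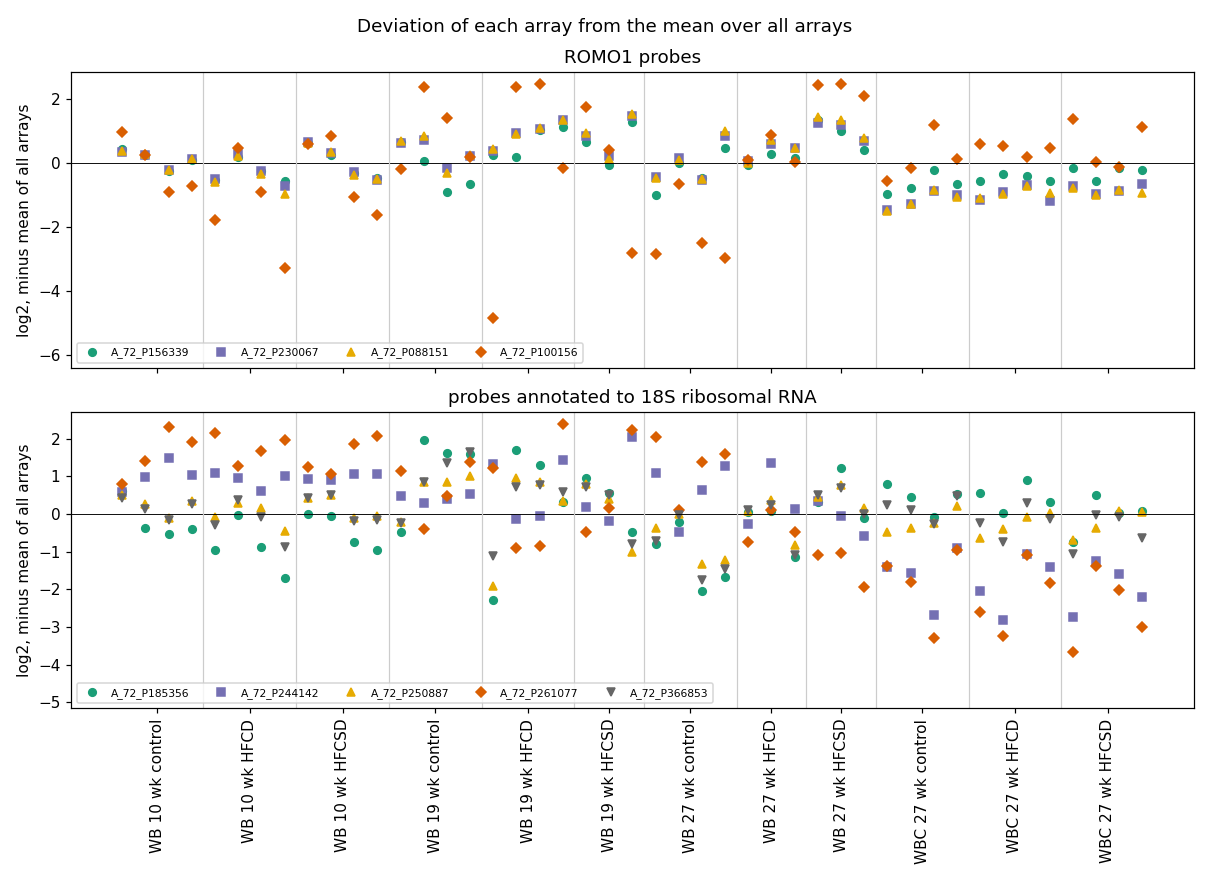
Log2 value of each array minus the mean of all 45 arrays, for the ROMO1 probes (top) and for probes annotated to 18S ribosomal RNA (bottom), by group; WB is whole blood and WBC white blood cells. A_72_P100156 has the widest range of the ROMO1 probes.

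Likeness over the 45 arrays was taken as Pearson r, given without a p, since the arrays include the group differences. The probes compared were 1963 probes with a gene symbol, not ROMO1, that were well above background on all arrays of at least 1 group. Genes among those most like A_72_P230067 were CYB5A (r 0.94) and DHRS4 (0.92), and these were among those most like A_72_P088151 too (0.93 and 0.91). Among those most like A_72_P156339 were CYB5A (0.89, by another probe) and DYNLL1 (0.86). In the order of A_72_P156339, A_72_P088151 would stand at place 2 (r 0.88) and A_72_P230067 at place 3 (0.87), and A_72_P088151 and A_72_P230067 stand first for each other (0.99). In the other direction A_72_P156339 stands at place 13 for A_72_P088151 and at place 27 for A_72_P230067. A_72_P100156 was most like OPRL1 (r 0.73), SREBF1 (0.64) and GRK7 (0.64), and the other ROMO1 probes stood at places 291 (A_72_P156339, r 0.27), 434 (A_72_P088151, 0.22) and 471 (A_72_P230067, 0.20).

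The 5 probes annotated to 18S ribosomal RNA on the array were looked at after the sequence and the values of A_72_P100156 were seen, so they carry no test. Over 45 arrays A_72_P100156 had r 0.78 with A_72_P185356, 0.74 with A_72_P250887 and 0.64 with A_72_P366853, and -0.42 with A_72_P244142 and -0.57 with A_72_P261077. Among deviations from the group means, these values were 0.78, 0.81, 0.63, -0.58 and -0.70. For A_72_P156339, A_72_P230067 and A_72_P088151 the values lay between 0.05 and 0.61 over the arrays, highest with A_72_P244142, and between -0.10 and 0.21 among deviations. In whole blood at 27 weeks HFCSD minus control was 1.66 for A_72_P185356, 1.18 for A_72_P250887 and 1.39 for A_72_P366853, with all 3 HFCSD arrays above all controls. It was -0.74 for A_72_P244142 and -2.63 for A_72_P261077. What these probes have to do with the values of A_72_P100156 was not tested.

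Also chosen after values were seen, the run CCCC, on the strand of the probe, occurs in 34 of the 50 probes most like A_72_P100156 (68.0%), beside 2811 of the 21129 probes ranked (13.3%). Among the 50 probes most like A_72_P156339 it occurs in 4, like A_72_P230067 in 13 and like A_72_P088151 in 14. The sequence of A_72_P100156 does not itself hold this run. Many other runs could have been picked from the same data, so these shares carry no test and no support. The share of spots well above background had r -0.67, -0.58 and -0.66 with A_72_P088151, A_72_P156339 and A_72_P230067 in deviations from the group means, and -0.20 with A_72_P100156. That share at 27 weeks in whole blood was 38.8% to 39.7% under HFCSD and 38.9% to 50.2% in control. With the share as a covariate, HFCSD minus control at 27 weeks was 0.54, 0.36 and 0.35 for A_72_P156339, A_72_P230067 and A_72_P088151 and 4.98 for A_72_P100156.

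The pathway around ROMO1 was followed through 3 lists. Of 23 genes of mitochondrial protein import, 6 have a named probe, and of 18 genes of fusion, fission and cristae also 6. From these lists 0 members passed a limma adjusted p of 0.05 in any of the 8 comparisons. Unadjusted p under 0.05 was reached by 3 import probes of 5 under HFCSD in white blood cells and by 2 cristae probes of 4 under HFCSD in whole blood at 27 weeks, and by no more than 1 elsewhere. Over all probes this was 2170 of 19105 in the first of these comparisons and 5529 of 17135 in the second. With other normalization, background or values, the import number was 1 to 4 of 5 and the cristae number 1 or 2 of 4. In that latter comparison the median change was -0.15 for import and 0.39 for cristae, beside -0.21 over all probes. Under HFCSD in white blood cells the import median was 0.37 beside 0.01.

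Of 24 genes of reactive oxygen species handling, 16 have a named probe. Under HFCSD in whole blood at 27 weeks 2 of 21 probes were higher and 1 lower at a limma adjusted p under 0.05, beside 7 at an unadjusted p under 0.05. Over all probes 1824 of 17135 passed the adjusted and 5529 the unadjusted threshold, and no test set the list against them. CAT, the catalase that breaks down hydrogen peroxide, was 1.68 log2 units higher (limma adjusted p = 0.032), with 11.58 ± 0.78 (SD, n = 4) in control and 13.26 ± 0.46 (SD, n = 3) under HFCSD. UCP2, a carrier of the inner mitochondrial membrane, was 1.34 higher (limma adjusted p = 0.024), and SOD2, the mitochondrial superoxide dismutase, fell by 1.23 (limma adjusted p = 0.035), each in 3 of 3 HFCSD arrays beyond every control. With the share of bright spots as a covariate 0 probes passed in this comparison, so these calls were lost. In the other 7 comparisons 0 of this list passed, with 1 to 3 at an unadjusted p under 0.05. The median change of the list in this comparison was -0.19.

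The markers on the array are few: 3 of 14 erythroid genes, 5 of 13 platelet genes, 4 of 13 neutrophil genes, 7 of 12 T cell genes, 2 of 8 B cell genes and 6 of 8 monocyte genes. PF4, MMP9, CD3D and LYZ, each the highest probe of its list, were well above background on 45 of 45 arrays, and HBA on 1 of 45. KLF1, the highest erythroid probe, averaged 7.68 in whole blood and 5.75 in white blood cells. EPOR went the other way at 3.81 and 4.34, and HBA averaged 1.79 and 1.52. PF4 averaged 13.12 and 12.94. The other platelet genes did not share a direction. ITGA2B averaged 11.97 in whole blood and 12.2 in white blood cells, and PPBP 9.40 and 11.28. ITGB3 averaged 11.89 and 11.80, and THBS1 10.64 and 5.84.

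EPOR was well above background on 28 of 45 arrays and KLF1 on 45, so the erythroid sum in whole blood rests mainly on KLF1. The summed level of the 3 erythroid probes in whole blood at 27 weeks was 102, 134, 99.96 and 241 in the control arrays. It was 82.0, 209 and 251 under HFCD and 561, 368 and 530 under HFCSD, where every array lay above the controls. Control replicate 4, which was high for A_72_P156339, A_72_P230067 and A_72_P088151, was the highest control for this sum too. Over the white blood cell arrays the sum lay between 49.0 and 164. The platelet sum at 27 weeks ran from 27950 to 35710 in control and from 10090 to 37410 under HFCSD, the neutrophil sum from 11280 to 35160 and from 14740 to 21300, the T cell sum from 7181 to 8801 and from 5543 to 8048, the B cell sum from 56.7 to 131 and from 50.5 to 99.3, and the monocyte sum from 15150 to 21470 and from 9300 to 16760. Under HFCD at 27 weeks the platelet sum, 16800 to 26400, lay below every control. At 10 weeks it was 15250 to 17590 under HFCD, also below the controls at 21460 to 33620, and the mean of the log2 erythroid sum was 7.08 ± 0.68 (SD, n = 4) beside 8.15 ± 0.66 (SD, n = 4) in control. At 19 weeks both sums overlapped with control under both diets. The part of any cell type in the ROMO1 values was not tested.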

How the data were processed

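Per the file headers and labels, the authors scanned 1-colour Agilent porcine arrays and deposited spot intensities from Feature Extraction (9.5.3.1 in the labels, 10.5.1.1 in the headers), with the background subtracted within each array. The authors' series table holds quantile normalized intensities on a linear scale and was used, after taking log2, as an alternative. After log2, the processed intensities of 45 arrays were quantile normalized together, without outlier and control spots. Probes were tested where every usable array of 1 or both groups marked them well above background and each group had 2 or more usable arrays. Each diet was compared with control by limma 3.58.1 in R 4.3.3 (package data.table, version 1.17.8) on the 3 diet groups of a set, with Benjamini-Hochberg adjustment over all probes tested. Probe pairs were compared by two-sided exact permutation, and correlations by 100000 permutations within groups. Other steps ran in Python 3.11.15 (matplotlib 3.10.9, scipy 1.17.1, pandas 2.3.3, numpy 2.4.6), and the tests were tested on simulated data. The members and lists were chosen with earlier results of these data known. Named genes are from the 3 named probes most like each ROMO1 probe and at most 3 members per pathway list and comparison that passed adjustment. Marker genes named are those of the erythroid and platelet lists and the highest probe of other marker lists. Genes were named from accessions, names and descriptions, for 3004 probes and 1966 genes. Alternatives changed the normalization, background, filter, samples fitted, test, blocks (replicate number, slide, scan day), covariate (share of spots well above background) and arrays. All 45 arrays were used.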

Additional observations from a re-analysis of the deposited data

Results flagged for a closer look

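A_72_P156339 read 9.97 (9.9671) in white blood cell HFCSD replicate 2, and the 3 other HFCSD arrays read 10.38, 10.38 and 10.32. By Dixon's test, the gap to the nearest array took up more of the group's range than the critical value allows. It was 1 of 36 groups of 4 arrays looked at over the ROMO1 probes, and chance marks about 1 in 20 groups. These include the whole blood control group at 27 weeks, part of the contrast the gene was chosen from, which was not marked for any probe. Groups of 3 arrays were not tested. The cause was not tested.

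The change of each ROMO1 probe was compared between the sets by 24 two-sided exact permutation tests of the difference, with diet labels permuted within sets. This treats the sets as independent. The study sampled its pigs repeatedly, so the sets share animals, and the labels do not say which arrays do. Of the 24 tests, 4 had an unadjusted p under 0.05 and 0 an adjusted p under 0.05. The lowest exact permutation p, 0.0167 (adjusted 0.154), was for A_72_P088151 under HFCD, with -0.56 at 10 weeks, where 3 of 4 HFCD arrays lay below the control mean, and 0.57 at 19 weeks, where 4 of 4 lay above it. Against the 1 control array scanned with the diet arrays, the value at 19 weeks was 0.26. For A_72_P156339 and A_72_P230067 under HFCD, which also had an unadjusted p under 0.05 between 10 and 19 weeks, it was -0.0019 and 0.30. The remaining test of the 4 set A_72_P088151 under HFCD at 10 weeks against white blood cells, where its change was 0.25. Its exact permutation p was 0.0257 (adjusted 0.154), and it uses no array of 19 weeks.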

How the results depend on the processing

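A result with a test was counted as unchanged if it kept its direction and its side of the threshold, whatever its size. A value without a test had to move by less than the SD between arrays, and a count to lie within 1.5 times. By these rules 97 of 130 results were unchanged in the alternatives fixed for them. These were 21 of 32 changes of single ROMO1 probes, 32 of 48 differences between probes, 18 of 18 correlations, 3 of 8 counts over the array and 23 of 24 list counts, the counts over alternatives of normalization, background and filter only. No ROMO1 probe passed an adjusted p of 0.05 in any setting, and the lowest was 0.127, with all 45 arrays in 1 fit. For the other results the cause was not tested.

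With the share of bright spots on an array (those well above background) added as a covariate, HFCSD minus control at 10 weeks was 0.041 for A_72_P088151, 0.25 for A_72_P100156 and 0.067 for A_72_P230067 (against -0.11, -0.21 and -0.078), and HFCSD minus control in whole blood at 27 weeks 0.35 for A_72_P088151, 0.54 for A_72_P156339 and 0.36 for A_72_P230067 (against 1.16, 1.17 and 1.03). With scan day as a block at 19 weeks, HFCD minus control was 0.15 for A_72_P100156 and -0.0019 for A_72_P156339, and HFCSD minus control -0.031 for A_72_P156339. With slide as a fixed block, an alternative chosen after seeing the data, the values at 19 weeks were 2.56 (HFCD) and 3.18 (HFCSD) for A_72_P100156, and -0.46 and -0.65 for A_72_P156339. These rest on 1 control and 1 HFCD array that share a slide. No slide there held control and HFCSD arrays, so the HFCSD values are linked to control only through HFCD arrays. With the replicate number as a block, in case arrays with the same number are paired, HFCSD minus control at 19 weeks was 0.54 for A_72_P088151, and no direction or call changed; the lowest adjusted p was 0.302. Arrays with the same number correlated above 0.1 in 8 of 12 pairs at 10 weeks, 1 of 10 at 19 weeks, 5 of 9 at 27 weeks and 3 of 12 of white blood cells, beside 15 of 36, 14 of 30, 9 of 24 and 13 of 36 pairs with different numbers.

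For the difference between probes in a diet change, values under another normalization by the 75th percentile were 0.0079 for A_72_P088151 minus A_72_P100156 (HFCD, white blood cells), -0.0069 for A_72_P088151 minus A_72_P230067 (HFCSD, 19 weeks), 0.032 for the same pair (HFCSD, whole blood, 27 weeks) and 0.041 for A_72_P156339 minus A_72_P230067 (HFCD, 10 weeks). With normexp they were -0.015 for A_72_P088151 minus A_72_P156339 (HFCSD, 10 weeks), 0.022 and -0.0055 for A_72_P088151 minus A_72_P230067 (HFCD and HFCSD, 19 weeks), and 0.045, -0.045 and -0.037 for A_72_P156339 minus A_72_P230067 (HFCD at 10 weeks, then HFCD and HFCSD in white blood cells). With quantile normalization over the arrays of the set, A_72_P088151 minus A_72_P230067 (HFCD, 19 weeks) was 0.00060.

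Of the counts of probes called, HFCD at 10 weeks gave 2 with no filter, against 5. HFCSD at 19 weeks gave 0 by the 75th percentile, 1 with normexp, 0 with no filter and 0 with the weaker flag of signal over background, against 3. HFCD in whole blood at 27 weeks gave 5 with no filter and 5 with the weaker flag, against 3. For probes called, HFCSD minus control, whole blood, 27 weeks, the number was 454 with no filter, against 1824. HFCD in white blood cells gave 3 with normexp, 2 with no filter and 3 with the weaker flag, against 5. The list of reactive oxygen species handling had 1 member called with no filter under HFCSD at 27 weeks, against 3.

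Counts in the other fits were added after seeing the data, and 0 of 8 lay within 1.5 times over every fit. The HFCSD count in whole blood at 27 weeks was 0 with the share of spots as a covariate, 142 by Student's t-test after adjustment (4713 at an unadjusted p under 0.05) and 95 to 2834 on leaving out 1 array. It was 95, 217 and 159 without control replicates 1, 2 and 3, and 104 and 118 without HFCSD replicates 1 and 2. With all 45 arrays in 1 fit the counts at 19 weeks were 525 (HFCD) and 326 (HFCSD), and for HFCSD in white blood cells 79. With the 3 groups of the set in the fit, that last count was 7, and 2 to 59 on leaving out 1 array. After adjustment the t-test called 0 probes in 6 of the 8 comparisons, which held 294 to 2768 probes at an unadjusted p under 0.05.

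Leaving out 1 array at a time, HFCSD minus control at 10 weeks ran from -0.32 to 0.060 for A_72_P088151, -0.59 to 0.23 for A_72_P100156, -0.32 to 0.044 for A_72_P156339 and -0.28 to 0.11 for A_72_P230067. All 4 had a positive value without HFCSD replicate 4. A_72_P100156 at 19 weeks ran from -1.81 to 0.62 for HFCD, positive without HFCD replicate 1, and from -2.15 to 0.14 for HFCSD, positive without HFCSD replicate 3.

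Tested differences between probes with a change of direction on leaving out 1 array ran as follows. A_72_P088151 minus A_72_P100156 ran from -0.18 to 0.37 (HFCSD, 10 weeks), -0.30 to 0.070 and -0.43 to 0.045 (HFCD and HFCSD, white blood cells). A_72_P088151 minus A_72_P156339 ran from -0.013 to 0.026 (HFCSD, 10 weeks), and A_72_P088151 minus A_72_P230067 from -0.057 to 0.027 and -0.038 to 0.072 (HFCD and HFCSD, 19 weeks). A_72_P100156 minus A_72_P156339 ran from -0.39 to 0.19 (HFCSD, 10 weeks), -0.015 to 0.33 and -0.14 to 0.36 (HFCD and HFCSD, white blood cells), and A_72_P100156 minus A_72_P230067 from -0.42 to 0.15, -0.00060 to 0.39 and -0.13 to 0.36 in the same comparisons. A_72_P156339 minus A_72_P230067 ran from -0.058 to 0.028 (HFCD, 10 weeks), -0.040 to 0.093 and -0.040 to 0.070 (HFCD and HFCSD, white blood cells). None of these passed the threshold. In whole blood at 27 weeks 5 differences without a test changed sign by less than the SD. Over all settings A_72_P088151 minus A_72_P156339 ran from -0.12 to 0.093 (HFCD) and -0.11 to 0.091 (HFCSD), A_72_P088151 minus A_72_P230067 from -0.060 to 0.053 (HFCD), and A_72_P156339 minus A_72_P230067 from -0.088 to 0.12 (HFCD) and -0.055 to 0.25 (HFCSD).

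The 4 ROMO1 probes were well above background on every array, so signal over background does not limit their values. The numbers of arrays limit every comparison. Quantile normalization makes values relative, and in bulk samples cell numbers and RNA per cell cannot be told apart.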
